A study of Mus musculus with 9 samples.

Results

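The genes described here are 3 FOXO transcription factors (Foxo1, Foxo3 and Foxo4) and 7 genes tied to them in the defence against reactive oxygen: Sod1, Sod2, Cat, Txnip, Sirt1, Sesn1 and Sesn3. They were chosen by gene symbol and are 10 of the 21939 genes in the deposited matrix. All 10 were among the 15127 genes with enough counts to be tested. The study measured RNA by bulk sequencing in LT-HSCs, long-term haematopoietic stem cells, which are the bone marrow cells that renew themselves and rebuild all blood lineages, from C57BL/6 mice. The aged+Ri group came from mice over 80 weeks old and received Rhosin at 100 µM, a compound that inhibits RhoA, a small GTPase of the cytoskeleton. The aged group came from mice over 80 weeks old with no inhibitor, and the young group from mice of 10 to 16 weeks. Cells of all 3 groups had been sorted for Sca1 and cKit and against lineage markers, CD34 and Flt3, then held for 16 h in a salt solution with 10% serum at 3% oxygen and 5% CO2 before RNA was taken. Each group had 3 libraries, described by the submitters as biological replicates. The number of mice behind each library is not given in the sources used here.

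FOXO proteins are transcription factors that growth signalling keeps out of the nucleus: insulin and growth factor receptors activate AKT, AKT phosphorylates FOXO, and 14-3-3 proteins hold the phosphorylated form in the cytoplasm. When that signal is low, or when oxidants activate stress kinases, FOXO enters the nucleus and raises genes that clear reactive oxygen and slow growth. In mice, loss of FOXO proteins in blood cells raises reactive oxygen in HSCs and costs them their quiescence and their capacity to repopulate, with Foxo3 the member most tied to HSC maintenance. Since FOXO activity is set largely by phosphorylation, acetylation and location in the cell, the transcript levels given here do not measure it.

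The libraries held between 34358101 and 72503142 counts, so that 3 counts corresponded to 0.0410 to 0.0855 CPM. All CPM here are TMM-normalised for library size. A count was present for 15117 to 16333 genes in aged+Ri libraries, for 15024 to 17987 in aged libraries and for 20129 to 21213 in young libraries. The libraries were sequenced in batches that did not match the groups: aged+Ri 1 and aged 1 in batch 1, aged+Ri 2, aged+Ri 3, aged 2 and young 2 in batch 2, aged 3 and young 3 in batch 3. Young 1 was split over batches 1 and 3. The Y-linked transcript Ddx3y had 2577 counts in young 2 and 6400 in young 3, while no other library had more than 1. All 15 HSC marker transcripts looked up, among them Kit, Mecom and Hlf, had counts in every library. Their summed level was 1979 to 4161 CPM in aged+Ri, 4042 to 5802 CPM in aged and 2667 to 4300 CPM in young libraries, and 12 of the 15 had a negative log2 change in aged+Ri against aged cells. Kit was 87.3, 325 and 166 CPM in aged+Ri, 448, 407 and 429 in aged, and 652, 655 and 264 in young libraries. Procr ran the other way, with every aged+Ri library above all others. Procr was 409, 181 and 217 CPM in aged+Ri, 145, 80.9 and 76.4 in aged, and 63.8, 96.2 and 48.0 in young libraries. By edgeR 1 of the 15 HSC markers was called higher and 0 lower in aged+Ri against young cells (adjusted p = 0.0394). Among markers of other blood cells, the summed myeloid markers were lower in every aged+Ri library than in any other library. The B cell, T and NK cell and erythroid sums of aged+Ri libraries overlapped those of at least 1 other group. By single genes in aged+Ri against aged cells, the 15 myeloid and 9 B cell markers tested all had a negative log2 change. So did 8 of 9 T and NK cell and 3 of 10 erythroid markers, beside 52.8% of all genes. The 11 megakaryocyte markers summed to 179 to 570 CPM in aged+Ri, 779 to 933 in aged and 290 to 707 in young libraries. Transcripts of 9 genes that mark cells the sort removes, Cd34 and Flt3 among them, summed to 8.79 to 40.5 CPM in aged+Ri, 57.0 to 88.2 CPM in aged and 49.7 to 127 CPM in young libraries. Of 16 myeloid markers, 4 to 7 were at 0 in aged+Ri libraries, among them Ly6g and Cebpe in all 3, and their summed level was 77.7 to 137 CPM there, against 493 to 10753 CPM in aged and 1152 to 3942 CPM in young libraries. Of 9 B cell markers, 1 to 4 were at 0 in aged+Ri libraries, and their sum was 65.9 to 161 CPM there, against 60.6 to 1030 CPM in aged and 192 to 13663 CPM in young libraries. Sums of 12 T and NK cell markers were 28.1 to 405 CPM in aged+Ri, 131 to 442 CPM in aged and 137 to 271 CPM in young libraries. Sums of 12 erythroid markers were 2060 to 3014 CPM in aged+Ri, 1855 to 2818 CPM in aged and 1234 to 2561 CPM in young libraries. The part of these markers in the differences given here was not tested. In bulk RNA, fewer cells that express a gene and less of its RNA per cell cannot be told apart.

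No member passed the test in any of the 3 comparisons. With edgeR's quasi-likelihood test and Benjamini-Hochberg adjustment over all genes tested, 0 of the 10 members were called at an adjusted p under 0.05 in aged against young cells, where 0.0331% of all genes were called. None was called in aged+Ri against aged cells, where 0% of all genes were called, nor in aged+Ri against young cells, where 1.45% were called (0.959% higher and 0.489% lower). At an unadjusted threshold of 0.05, 2 members passed in aged against young cells (Sod2 higher and Sirt1 lower) beside 16.2% of all genes (6.09% higher and 10.1% lower). At that threshold 0 members passed in aged+Ri against aged cells beside 9.14% of all genes (4.24% higher and 4.89% lower). Set against young cells, aged+Ri cells had 3 members past it (Sod2 higher, Foxo3 and Foxo4 lower) beside 23.4% (9.06% higher and 14.4% lower). By limma-voom no member was called in aged against young, in aged+Ri against aged or in aged+Ri against young cells, where it called 0.119%, 0.364% and 4.26% of all genes in that order. By DESeq2 no member was called in aged against young cells (4.92% of all genes called) or in aged+Ri against aged cells (2.12%), and those same 3, Foxo3, Foxo4 and Sod2, were called in aged+Ri against young cells, where it called 12.3% of all genes. The median log2 change of the 10 genes was -0.29 in aged against young, -0.21 in aged+Ri against aged and -0.48 in aged+Ri against young cells. The medians over all genes tested were -0.13, -0.06 and -0.24 in the same comparisons, which share their libraries and so are not independent of each other. The change was positive for 4 members and negative for 6 in aged against young cells (45.3% and 54.7% of all genes), for 4 and 6 in aged+Ri against aged cells (47.2% and 52.8%), and for 2 and 8 in aged+Ri against young cells (42.6% and 57.4%).

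**Figure D1:**
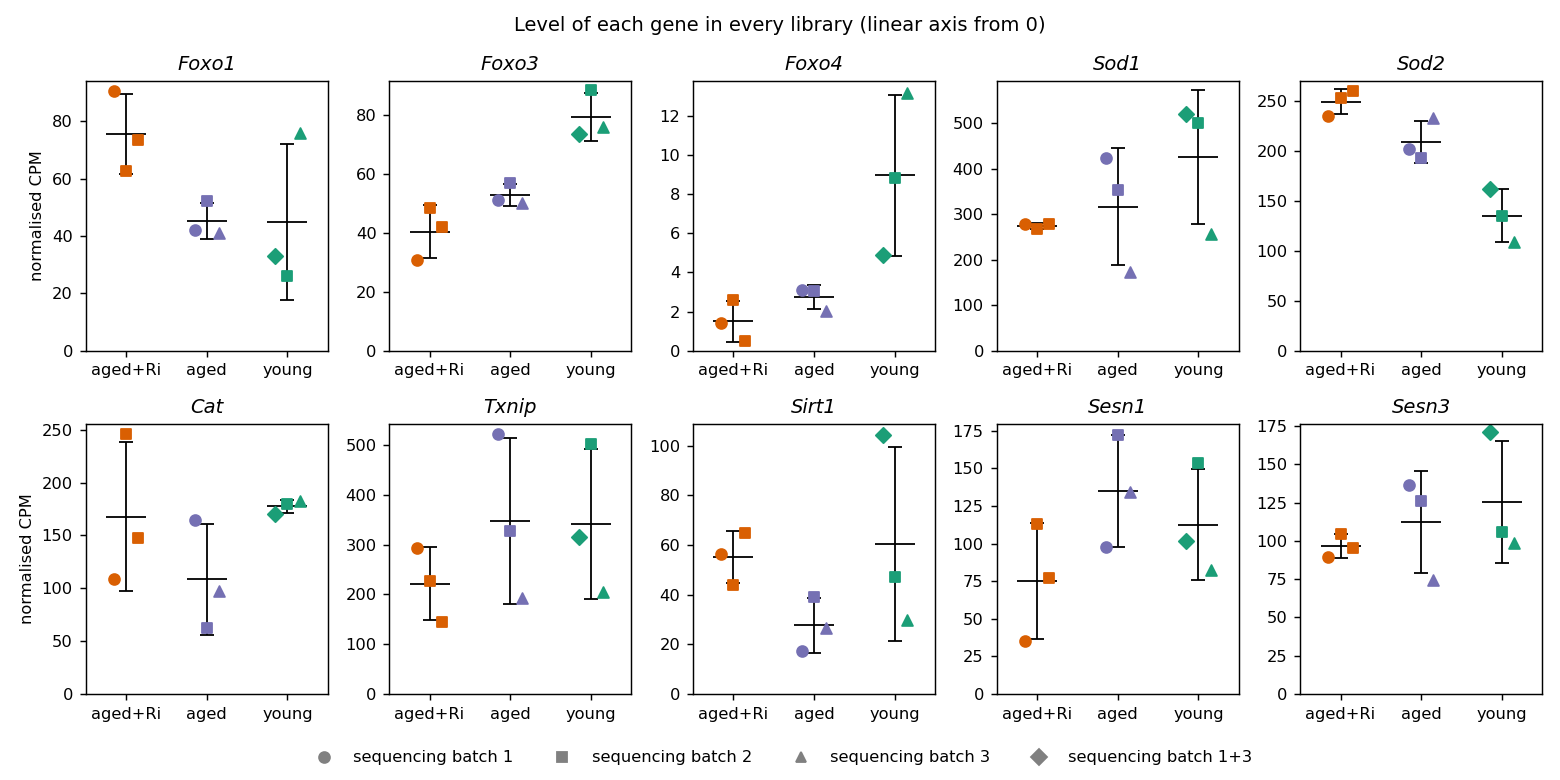
Normalised CPM (linear axis from 0) of each of the 10 genes in the 3 aged+Ri, 3 aged and 3 young libraries, with a point for each library, its shape giving the sequencing batch, and a bar for the mean with 1 SD to each side. Foxo3 steps up and Sod2 steps down between the aged+Ri, aged and young groups with no overlap, while for Txnip and Sesn3 every pair of groups overlaps.

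Foxo3 was lowest in aged+Ri cells and highest in young cells, and no library of one group overlapped another group. Its gene lies on the minus strand of chromosome 10 at 42181841 to 42276755 (GRCm38). The aged+Ri libraries had 30.9, 48.4 and 41.9 CPM, the aged libraries 51.3, 57.0 and 50.2 CPM, and the young libraries 73.5, 88.5 and 75.8 CPM. Such a complete separation in this order was found in 113 genes, 0.747% of all genes tested. The mean was 40.4 ± 8.84 CPM in aged+Ri, 52.8 ± 3.65 CPM in aged and 79.3 ± 8.09 CPM in young cells (SD, n = 3 each). The fitted log2 change in aged+Ri against young cells was -0.97 ± 0.36 (SE, 95% interval -1.74 to -0.20), with an edgeR adjusted p of 0.138. DESeq2 gave -1.05 with an adjusted p of 0.00535 for the same pair of groups. The steps between were smaller: -0.59 ± 0.36 in aged against young cells (edgeR adjusted p = 0.424) and -0.39 ± 0.36 in aged+Ri against aged cells (edgeR adjusted p = 0.838). As no groups overlapped, the direction within a batch was fixed in advance, and only the sizes are given here. Each batch held 1 library per group, except for 2 aged+Ri libraries in batch 2. The differences of log2 CPM were -0.64 and -0.60 for aged minus young in batches 2 and 3. For aged+Ri minus aged they were -0.73 and -0.34 in batches 1 and 2. In batch 2 the aged+Ri minus young difference was -0.98. With any single library left out, the fitted log2 change of aged+Ri against young cells lay between -1.10 and -0.77.

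Foxo1, which in lymphoid cells also drives B cell and T cell genes, took another order. It stood at 90.4, 62.7 and 73.4 CPM in aged+Ri libraries, at 42.0, 52.3 and 41.1 CPM in aged libraries, and at 33.0, 25.9 and 76.0 CPM in young libraries. All aged+Ri values lay above all aged values, while young 3 stood inside the aged+Ri range and the other 2 young libraries below all others. The log2 change was 0.74 ± 0.45 in aged+Ri against aged cells (95% interval -0.22 to 1.70, edgeR adjusted p = 0.669) and 0.75 ± 0.45 in aged+Ri against young cells (edgeR adjusted p = 0.325). Against young cells the aged mean was at the same level, with a log2 change of 0.01 ± 0.44 (edgeR adjusted p = 0.995) whose sign changed with the scaling (-0.08 with DESeq2 size factors). That comparison turned on young 3: without it the log2 change of aged against young cells was 0.63. Cd79a, a component of the B cell receptor, was 0.674, 2.04 and 19.3 CPM in the aged+Ri libraries, 2.86, 68.1 and 168 CPM in the aged libraries, and 13.9, 2.09 and 308 CPM in the young libraries. Young 3 was thus also the library with the highest Cd79a, while the aged+Ri libraries, high in Foxo1, held at most 19.3 CPM of it. Within batches, Foxo1 was higher in aged+Ri than in aged cells by 1.10 in batch 1 and 0.37 in batch 2 on the log2 scale, and the aged minus young difference turned with the batch, at 1.01 in batch 2 and -0.89 in batch 3. Foxo1 (chromosome 3, 52268336 to 52353221, plus strand) shares 674 bp of exon, 7.78% of its exonic length, with the antisense gene Gm20402, and nothing states that reads were counted by strand.

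Foxo4, the X-linked FOXO, was by far the weakest of the 3. It had 1.43, 2.57 and 0.480 CPM in aged+Ri libraries, 3.10, 3.07 and 2.03 CPM in aged libraries, and 4.89, 8.83 and 13.1 CPM in young libraries. The young libraries lay above all 6 libraries from old mice, and the highest library was 27.4 times the lowest. Its log2 change was -2.58 ± 1.10 in aged+Ri against young cells (95% interval -4.95 to -0.21, edgeR adjusted p = 0.183, DESeq2 adjusted p = 0.00563) and -1.71 ± 1.07 in aged against young cells (edgeR adjusted p = 0.437). The aged+Ri and aged groups overlapped, and the log2 change was -0.87 ± 1.05 (edgeR adjusted p = 0.901). With young 1 as the only young library, the one of that group with no Ddx3y count, the change of aged against young cells was -0.78. Young 1 was also split over batches 1 and 3, and the part of mouse sex or batch in this value was not tested. Within batches the aged minus young difference was -1.51 in batch 2 and -2.67 in batch 3. Foxo6, the remaining FOXO gene, had at most 6 counts in any library and was not tested.

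**Figure D2:**
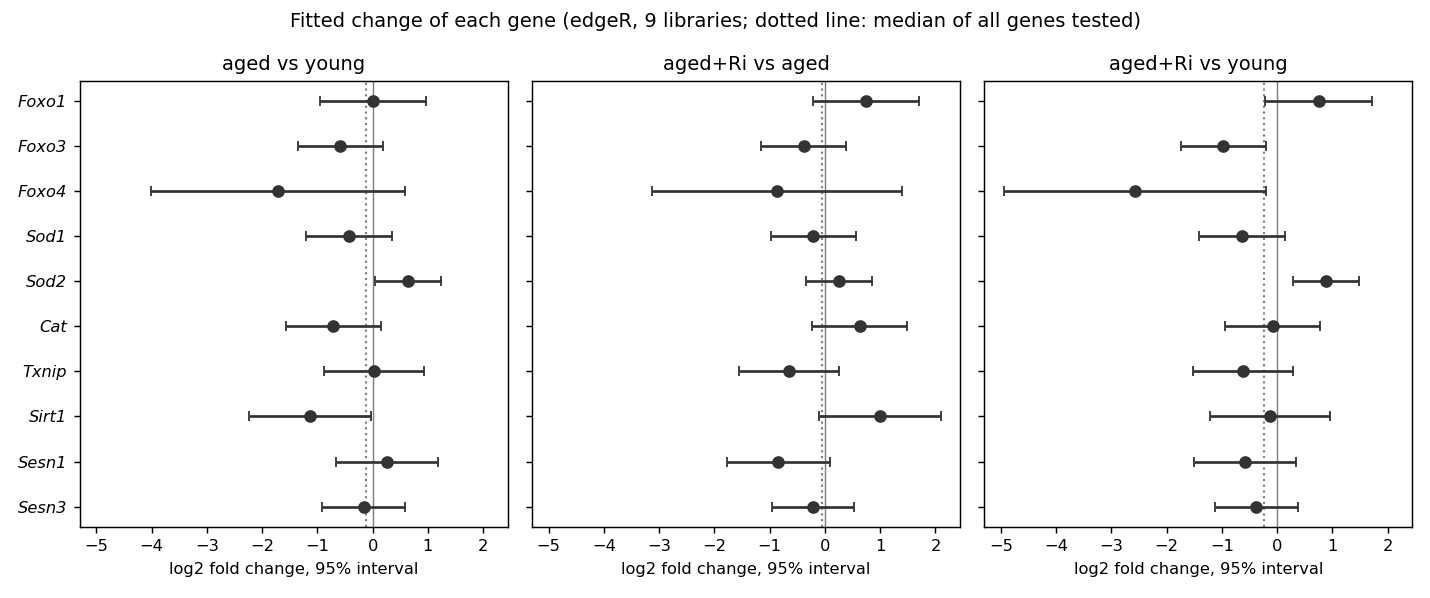
Fitted log2 fold change of each of the 10 genes in the 3 comparisons (x axis, log2), with the 95% interval from edgeR as a bar, a grey line at 0 and a dotted line at the median of all genes tested. The interval of Sod2 lies above 0 in aged against young and in aged+Ri against young cells, and those of Foxo3 and Foxo4 lie below 0 in aged+Ri against young cells, as does that of Sirt1 in aged against young cells, with none of them called after adjustment.

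Sod2, the manganese superoxide dismutase of the mitochondrial matrix, ran opposite to Foxo3. The aged+Ri libraries had 235, 254 and 259.9 CPM, the aged libraries 202, 193 and 233 CPM, and the young libraries 162, 134 and 109 CPM. Every aged+Ri library was above every aged library, and every aged library above every young one, an order that 119 genes (0.787% of all genes tested) had in full. The margin was narrow between aged+Ri 1 (235 CPM) and aged 3 (233 CPM), and the order was read with TMM scaling only. The mean was 249 ± 12.9 CPM in aged+Ri, 209 ± 21.0 CPM in aged and 135 ± 26.5 CPM in young cells (SD, n = 3 each). Its log2 change was 0.88 ± 0.28 in aged+Ri against young cells (95% interval 0.28 to 1.48), with an adjusted p of 0.101 by edgeR and 0.0212 by DESeq2. For aged against young cells it was 0.63 ± 0.28 (95% interval 0.03 to 1.23, edgeR adjusted p = 0.285), and in aged+Ri against aged cells 0.25 ± 0.28 (95% interval -0.34 to 0.85, edgeR adjusted p = 0.878). The aged minus young difference was 0.53 in batch 2 and 1.10 in batch 3, and the aged+Ri minus aged difference 0.22 in batch 1 and 0.41 in batch 2. Sod2 lies on the plus strand of chromosome 17 at 13006846 to 13040063, and its estimated count was fractional in all 9 libraries.

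Sod1, the copper and zinc superoxide dismutase of the cytosol, did not share that order. It had 277.6, 266.4 and 277.7 CPM in aged+Ri libraries, 422, 354 and 173 CPM in aged libraries, and 520.2, 499.5 and 256 CPM in young libraries. The aged+Ri values were close together, with an SD of 6.51 CPM, while the aged and young groups spanned a wide range, each with its batch 3 library the lowest. The log2 change was -0.43 ± 0.36 in aged against young cells (edgeR adjusted p = 0.583), -0.21 ± 0.36 in aged+Ri against aged cells (edgeR adjusted p = 0.948) and -0.63 ± 0.36 in aged+Ri against young cells (edgeR adjusted p = 0.304). Within batches the aged minus young difference was -0.50 in batch 2 and -0.57 in batch 3, and the aged+Ri minus aged difference -0.60 in batch 1 and -0.38 in batch 2. With batch as a covariate the aged+Ri against young change was -1.12, with an edgeR adjusted p of 0.0991.

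Cat encodes catalase, the peroxisomal enzyme that breaks hydrogen peroxide into water and oxygen, the step after superoxide dismutase. Its level was 109, 246 and 148 CPM in aged+Ri libraries, 165, 62.3 and 97.8 CPM in aged libraries, and 170.1, 179 and 183 CPM in young libraries. Every aged library was below the 3 young libraries, which differed little among themselves (SD 6.57 CPM), and the aged+Ri libraries lay on both sides of them. The log2 change was -0.71 ± 0.40 in aged against young cells (95% interval -1.57 to 0.14, edgeR adjusted p = 0.383) and 0.63 ± 0.40 in aged+Ri against aged cells (edgeR adjusted p = 0.687). The aged minus young difference was -1.53 in batch 2 and -0.90 in batch 3. The aged+Ri minus aged difference turned with the batch, at -0.60 in batch 1 and 1.61 in batch 2. Against young cells the aged+Ri change was -0.08 ± 0.40 (edgeR adjusted p = 0.922).

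Txnip and Sesn1 are shown with their promoters because they were the only members whose RefSeq windows, 250 bases before to 50 after the transcript start, held the FOXO core letters GTAAACA on either strand. The windows covered 9 of the 10 members, Sesn1 with 2 of them, so that 2 of 10 windows held the letters, against 3.65% of all 32851 promoter windows. The Txnip match began 121 bases before the start on the plus strand. The Sesn1 match lay 22 bases after the start and reads TGTTTAC on the printed strand. Capitals mark the match, and both stretches are plus strand, from RefSeq on GRCm38.p6.
Txnip, chr3:96557707-96557956: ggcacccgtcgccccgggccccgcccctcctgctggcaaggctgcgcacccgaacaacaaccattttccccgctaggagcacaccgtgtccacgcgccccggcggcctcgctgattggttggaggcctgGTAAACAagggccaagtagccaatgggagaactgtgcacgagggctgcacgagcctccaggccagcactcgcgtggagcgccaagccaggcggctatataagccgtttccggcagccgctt
Sesn1, chr10:41810585-41810614: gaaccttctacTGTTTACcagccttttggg
The insulin response letters CAAAACAA were in 0 of the 10 windows and in 2.51% of all windows. The antioxidant response letters TGACNNNGC were in the windows of Sod1 and Sirt1, against 12.4% of all windows, and the E-box CACGTG was in that of Sirt1, at 115 and 43 bases before the start, against 7.15%. The Sirt1 antioxidant response match overlaps the first of its E-boxes by 2 bases. A match of letters is a description of the window and says nothing of binding in these cells.

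Txnip encodes the thioredoxin-interacting protein, an alpha-arrestin that binds thioredoxin and limits glucose uptake, and in mice its loss impairs HSC quiescence. It had 293, 228 and 145 CPM in aged+Ri libraries, 524, 328 and 193 CPM in aged libraries, and 315, 503 and 205 CPM in young libraries. All groups overlapped, and the SD of the aged group (166 CPM) and of the young group (151 CPM) exceeded every difference between group means. The log2 change was -0.65 ± 0.42 in aged+Ri against aged cells (95% interval -1.55 to 0.26, edgeR adjusted p = 0.704) and -0.62 ± 0.42 in aged+Ri against young cells (edgeR adjusted p = 0.391). Within batches the aged+Ri minus aged difference was -0.84 in batch 1 and -0.85 in batch 2, and with batch as a covariate the aged+Ri against young change was -1.17 (edgeR adjusted p = 0.0991). In aged against young cells the change was 0.03 ± 0.42 (edgeR adjusted p = 0.983), with a sign that turned to -0.06 with DESeq2 size factors. The antisense gene Gm15441 overlaps 606 bp of Txnip exon, 19.4% of its exonic length, and its reads cannot be told from those of Txnip without strand.

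Sesn1 and Sesn3 encode sestrins, stress proteins that restrain mTORC1 and aid the recycling of peroxiredoxins. Sesn1 had 35.5, 113 and 77.1 CPM in aged+Ri libraries, 97.9, 173 and 134 CPM in aged libraries, and 102, 154 and 82.2 CPM in young libraries. The aged+Ri libraries were spread widely, with aged+Ri 1 low and aged+Ri 2 high, and the groups overlapped. The log2 change was -0.84 ± 0.43 in aged+Ri against aged cells (95% interval -1.78 to 0.09, edgeR adjusted p = 0.593), with within-batch differences of -1.46 in batch 1 and -0.89 in batch 2. Without aged+Ri 1 that change was -0.51, and without aged+Ri 2 it was -1.25. It was -0.58 ± 0.43 in aged+Ri against young cells (edgeR adjusted p = 0.435) and 0.26 ± 0.43 in aged against young cells (edgeR adjusted p = 0.811). Sesn3 had 89.6, 105 and 95.5 CPM in aged+Ri libraries, 136, 126 and 74.3 CPM in aged libraries, and 171, 106 and 98.7 CPM in young libraries. It was the steadiest of the 10 genes, with a ratio of 2.30 between its highest and lowest library, and its largest log2 change was -0.38 ± 0.35, in aged+Ri against young cells (edgeR adjusted p = 0.544). The remaining sestrin, Sesn2, stayed between 0.777 and 6.22 CPM in all 9 libraries.

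Sirt1 encodes an NAD-dependent deacetylase that acts on FOXO proteins, p53 and histones. Its level was 56.4, 44.0 and 65.0 CPM in aged+Ri libraries, 17.2, 39.2 and 26.6 CPM in aged libraries, and 104, 47.2 and 29.9 CPM in young libraries. All aged+Ri libraries were above all aged libraries, while the young group ran across both. The log2 change was 1.00 ± 0.51 in aged+Ri against aged cells (95% interval -0.11 to 2.10, edgeR adjusted p = 0.593), with within-batch differences of 1.71 in batch 1 and 0.45 in batch 2. In aged against young cells it was -1.13 ± 0.51 (95% interval -2.23 to -0.02, edgeR adjusted p = 0.2996). That value rested on young 1: without it the log2 change was -0.52, with it as the only young library -1.85, and within batches 2 and 3 the aged minus young difference was -0.26 and -0.17. Sirt1 had a fractional count in all 9 libraries, and 65 bp of its exons overlap the antisense gene Gm16145.

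**Figure D3:**
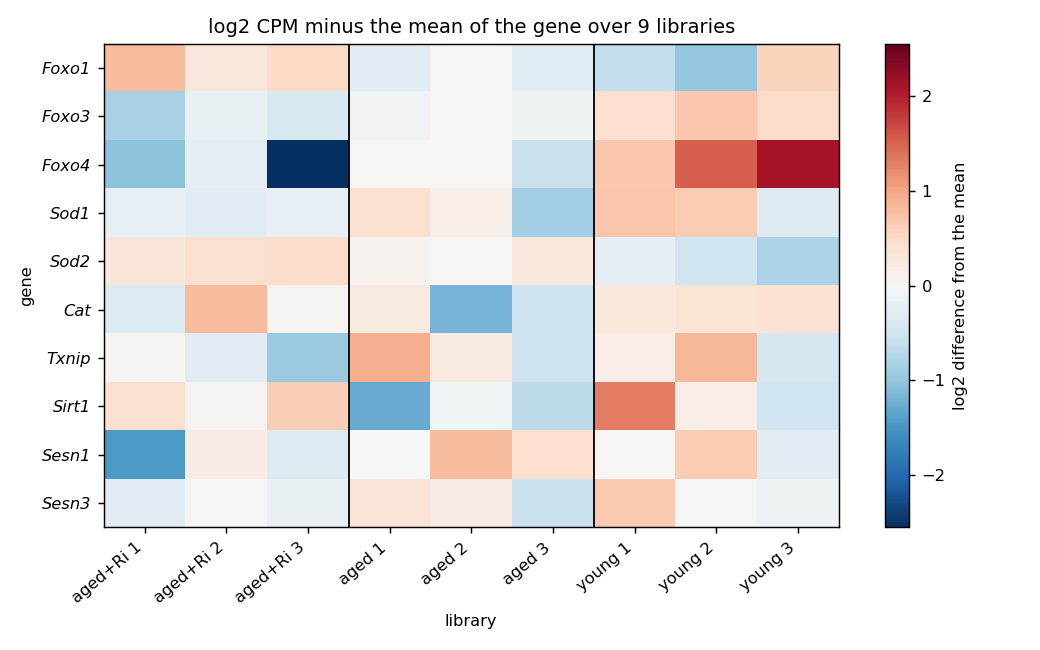
Difference of log2 CPM from the mean of each gene over the 9 libraries (colour, blue below and red above the mean), with genes in rows, and libraries in columns in the order aged+Ri, aged, young, divided by vertical lines. Foxo4 spans the widest range, and across the groups Foxo3 runs from blue to red and Sod2 from red to blue.

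Counted together, the groups did not overlap for 4 members in aged against young cells (Sod2 higher, and Foxo3, Foxo4 and Cat lower), beside 24.7% of all genes tested (8.58% higher and 16.1% lower). It held for 4 members in aged+Ri against aged cells (Foxo1, Sod2 and Sirt1 higher, and Foxo3 lower), beside 16.5% of all genes (7.87% higher and 8.66% lower). It held for 3 in aged+Ri against young cells (Sod2 higher, and Foxo3 and Foxo4 lower), beside 32.3% (12.4% higher and 19.9% lower). With 3 libraries against 3, an exact two-sided permutation test of a single gene cannot go below p = 0.1. A pattern by batch stood beside these: Sod1, Txnip and Sesn3 were lowest in the batch 3 library of both the aged and the young group, as were 12.9% of all genes, and 0 members were highest in both, as were 14.9%.

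Per kilobase of exon, Txnip (97.3 CPM per kb, mean over 9 libraries) and Sod1 (85.3) stood highest. They were followed by Cat (57.8), Sesn1 (27.0), Sod2 (19.8), Sirt1 (8.96), Foxo3 (7.59), Sesn3 (7.29), Foxo1 (6.37) and Foxo4 (1.26), all in CPM per kb. Only the steps from Cat to Sesn1, from Sod2 to Sirt1 and from Foxo1 to Foxo4 exceeded the larger SD of the 2 neighbours over the libraries. Foxo1 was above Foxo4 in all 9 libraries. With the length of the principal transcript in place of all exons, Sod1 came first (528 CPM per kb) and Txnip second (109 CPM per kb).

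The genes nearest to each member in shape were found by the root-mean-square distance of log2 CPM, each gene centred on its mean, over the 9 libraries among 9750 genes of at least 5 CPM on average. Sod2 was nearest to Eci1, an enzyme of mitochondrial fatty acid oxidation, at 0.10. Sod1 was nearest to the ribosomal protein gene Rpl9 (0.11), with Rpl5 also close (0.14). Sesn3 was nearest to Ndufb6, a complex I subunit, at 0.13. Foxo3 was nearest to Ndufb5, another subunit of that respiratory complex, and to the splicing factor Sfpq and the proton pump subunit Atp6v1a, each at 0.16. The distance was 0.19 from Foxo1 to Mrpl32, 0.20 from Txnip to Phc1, 0.24 from Cat to Washc2 and from Sesn1 to Casp2, 0.29 from Sirt1 to Tsc22d2 and 0.45 from Foxo4 to Prr12. Between members, the nearest pair was Sod1 and Sesn3 at 0.27, and Foxo3 was 0.43 from its nearest member, Sesn3, a distance about as large as its own spread of 0.44.

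Around the 10 genes, upstream regulators of FOXO were called by edgeR only in aged+Ri against young cells. Of 47 such genes (growth factor receptor signalling, AKT, 14-3-3 proteins, FOXO cofactors) 46 were tested. Between aged and young cells 0 passed by edgeR, with 2 higher and 1 lower at an unadjusted threshold of 0.05. DESeq2 called 2 higher and 1 lower in that pair of groups, and limma-voom 1 higher and 0 lower. The list's median log2 change was -0.14, against -0.13 over all genes. Between aged+Ri and aged cells 0 passed by edgeR, with 2 higher and 1 lower unadjusted, DESeq2 called 1 lower, and the median was 0.02. Set against young cells, 2 rose in aged+Ri cells and 0 fell, beside 0.959% higher and 0.489% lower of all genes, with 5 higher and 4 lower unadjusted and a median of -0.41 over the list. DESeq2 called 4 higher and 3 lower there, and limma-voom 4 higher and 0 lower. In the 3 comparisons in that order, 16.2%, 9.14% and 23.4% of all genes passed unadjusted. DESeq2 called 4.92%, 2.12% and 12.3% of all genes, and limma-voom 0.119%, 0.364% and 4.26%. Ywhah, the eta 14-3-3 protein, had 509, 524 and 651 CPM in aged+Ri libraries and 106, 146 and 186 CPM in young libraries, a log2 change of 1.95 ± 0.32 (edgeR adjusted p = 0.0173). The call of Ywhah was lost without aged+Ri 3 (edgeR adjusted p = 0.0916) and without young 1 (0.0535). Fcor, known in mouse fat cells as a corepressor that acetylates FOXO1, had 2.92, 3.68 and 3.67 CPM in aged+Ri and 19.5, 7.46 and 24.5 CPM in aged libraries. The aged+Ri libraries together held 447 counts of Fcor, against 2 in the young libraries, a ratio of depth-scaled counts of 214 with a counting interval (95%) of 59.0 to 1777 and an edgeR adjusted p of 0.0257. In aged against young cells the ratio for Fcor was 1094 (302.6 to 9035), with an edgeR adjusted p of 0.0539. The Fcor call in aged+Ri against young cells was lost without any 1 of aged+Ri 1, aged+Ri 3, aged 1, aged 3 or young 1 (edgeR adjusted p between 0.0552 and 0.0932), and with only aged+Ri and young libraries in the fit (0.0867).

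Of 50 other FOXO targets 48 were tested, genes of cell cycle arrest, autophagy, cell death and lymphocyte homing. Between aged and young cells 0 passed by edgeR, and the median was -0.27. Unadjusted, 4 were higher and 7 lower (6.09% and 10.1% of all genes), and DESeq2 called 0 higher and 3 lower (4.92%). Between aged+Ri and aged cells 0 passed by edgeR, and the median was 0.30, against -0.06 over all genes. Unadjusted, 5 were higher and 2 lower (4.24% and 4.89% of all genes), and DESeq2 called 1 higher and 2 lower (2.12%). Set against young cells, 2 rose in aged+Ri cells and 1 fell, beside 0.959% higher and 0.489% lower of all genes, with 9 higher and 9 lower unadjusted. Unadjusted, that stood beside 9.06% and 14.4% of all genes. DESeq2 called 4 higher and 6 lower there (12.3% of all genes) and limma-voom 3 higher and 2 lower (4.26%), and the median was -0.08. The risers were Eif4ebp1, a brake on cap-dependent translation that averaged 1216 ± 447 CPM in aged+Ri and 356 ± 166 CPM in young cells, and Becn1, a core autophagy gene that averaged 132 ± 29.7 CPM in aged+Ri and 40.3 ± 11.7 CPM in young cells (SD, n = 3 each). Their log2 changes were 1.77 ± 0.36 and 1.71 ± 0.37, with edgeR adjusted p of 0.0345 and 0.0392. Bcl6, a transcriptional repressor, fell by 2.12 ± 0.48 on the log2 scale (edgeR adjusted p = 0.0470), at 12.7, 10.2 and 18.6 CPM in aged+Ri libraries against 61.2, 64.8 and 54.4 CPM in young libraries. The Becn1 call was lost in 11 of 18 alternatives, the Bcl6 call in 13 and the Eif4ebp1 call in 7. Those of Becn1 and Bcl6 were lost without any single library other than young 3 (edgeR adjusted p between 0.0536 and 0.180), and that of Eif4ebp1 without any 1 of aged+Ri 1, aged+Ri 3, aged 1, aged 2, young 1 or young 2 (0.0525 to 0.122). With only aged+Ri and young libraries in the fit all 3 calls were lost (0.0850 to 0.0852). With batch as a covariate those of Becn1 (0.0769) and Bcl6 (0.0737) were lost. With young 1 as the whole young group both were lost too, at log2 changes of 1.36 and -2.09. That of Bcl6 was also lost with no filter (0.0740) and with the replicate block (0.0706).

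Of 32 other antioxidant enzymes 31 were tested. In aged against young cells 1 rose and 0 fell, 25 of the 31 had a positive log2 change where 45.3% of all genes had, and the median was 0.47. At the unadjusted threshold 6 were higher and 1 lower (6.09% and 10.1% of all genes). DESeq2 called 3 higher and 1 lower (4.92% of all genes), and limma-voom 1 higher and 0 lower (0.119%). The one called was Gpx8, a glutathione peroxidase of the endoplasmic reticulum, at 14.2, 31.0 and 31.7 CPM in aged libraries against 0.121, 0.0765 and 0.0570 CPM in young libraries (log2 change 8.18 ± 1.15, edgeR adjusted p = 0.0207), and that call was lost without aged 3 (0.136) or with only those groups in the fit (0.119). In aged+Ri against aged cells 0 passed by edgeR, and the median was -0.20. Unadjusted, 6 were higher and 4 lower (4.24% and 4.89% of all genes). By DESeq2 3 rose (2.12% of all genes called) and by limma-voom 3 (0.364%). The nearest to a call there was Nqo1, a quinone reductase, at 611, 841 and 939 CPM in aged+Ri libraries against 146, 72.9 and 80.4 CPM in aged libraries (log2 change 3.00 ± 0.40, edgeR adjusted p = 0.0567). It passed the threshold under 12 of 18 alternatives, with adjusted p between 3.6e-08 (DESeq2) and 0.137 (edgeR without aged 2). Set against young cells, 4 rose in aged+Ri cells and 0 fell, beside 0.959% higher and 0.489% lower of all genes. Unadjusted, 11 were higher and 2 lower (9.06% and 14.4% of all genes). DESeq2 called 8 higher and 2 lower (12.3% of all genes), and limma-voom 7 higher and 0 lower (4.26%). Nqo1 was 107, 44.5 and 60.6 CPM in young libraries (log2 change 3.50 ± 0.41, edgeR adjusted p = 0.00304). Prdx6, a peroxiredoxin, had 1585, 1439.9 and 1556 CPM in aged+Ri libraries, 599, 579 and 525 CPM in aged libraries, and 209, 352 and 388 CPM in young libraries. The log2 change of Prdx6 was 2.27 ± 0.28 in aged+Ri against young cells (edgeR adjusted p = 0.00354) and 1.43 ± 0.27 in aged+Ri against aged cells (edgeR adjusted p = 0.140). The calls of Nqo1 and Prdx6 against young cells held under all 18 alternatives. Gpx8 (log2 change 6.59 ± 1.08, edgeR adjusted p = 0.0173) and Glrx5, a mitochondrial glutaredoxin of iron-sulphur cluster assembly (1.60 ± 0.32, edgeR adjusted p = 0.0310), were the other 2. The Gpx8 call was lost with only aged+Ri and young libraries in the fit (0.0802). The Glrx5 call was lost without any single library other than aged+Ri 2 and young 3 (edgeR adjusted p between 0.0540 and 0.154), with only aged+Ri and young libraries in the fit (0.0802), with batch as a covariate (0.0647) and with young 1 as the whole young group (0.105).

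In 3 smaller lists nothing passed by edgeR. The shares of all genes in aged against young, aged+Ri against aged and aged+Ri against young cells stand beside their other counts. They were 16.2%, 9.14% and 23.4% unadjusted, and 4.92%, 2.12% and 12.3% by DESeq2. The 6 other sirtuins had medians of 0.33 in aged against young, -0.39 in aged+Ri against aged and 0.18 in aged+Ri against young cells, with 1 higher, 1 lower and 1 higher gene at an unadjusted threshold of 0.05 and DESeq2 calls of 1, 0 and 1. Sirt3, the mitochondrial deacetylase that acts on SOD2, averaged 49.97 ± 9.35 CPM in aged+Ri and 95.7 ± 3.87 CPM in aged cells (edgeR adjusted p = 0.473). Of the 5 other alpha-arrestins, relatives of Txnip, 4 were tested, with 1 gene higher unadjusted in aged against young and 1 in aged+Ri against young cells and none in aged+Ri against aged cells. That gene was Arrdc1 in both, which DESeq2 called. The NADPH oxidase genes, a source of superoxide in myeloid cells, had negative medians of -1.18, -1.27 and -3.29 over the 10 of 11 tested, in the order aged against young, aged+Ri against aged and aged+Ri against young. At the unadjusted threshold 1 was higher and 1 lower, 1 higher and 3 lower, and 1 higher and 6 lower in that order, and DESeq2 called 1, 1 and 3 of them lower. Ncf4, a phagocyte oxidase subunit, averaged 1.11 ± 0.999 CPM in aged+Ri, 11.6 ± 10.9 CPM in aged and 19.3 ± 19.2 CPM in young cells (SD, n = 3 each). The summed myeloid markers given above were also lowest in aged+Ri libraries, and their part in these values was not tested.

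**Figure D4:**
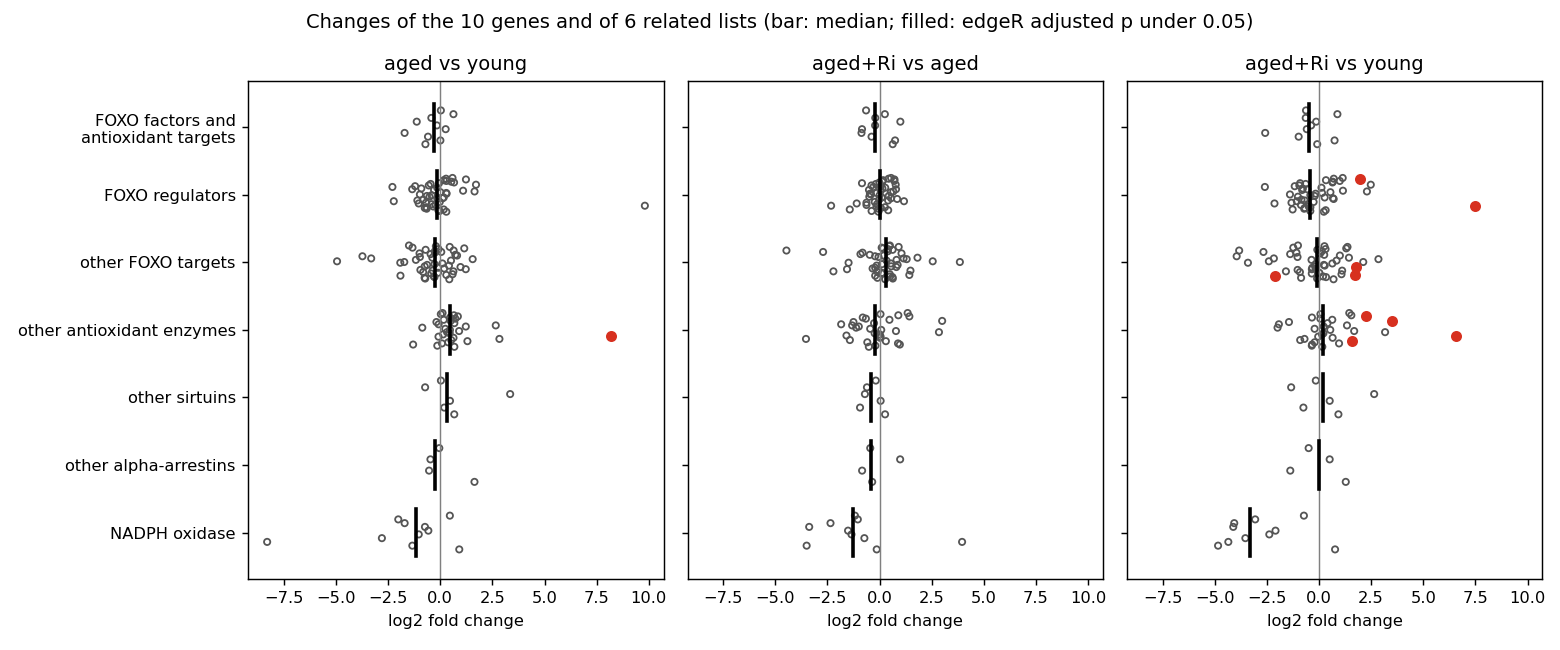
Fitted log2 fold change (x axis) of every tested gene of the FOXO and antioxidant group and of 6 related lists in the 3 comparisons, with a black bar at the median of each list and filled red points for genes with an edgeR adjusted p under 0.05. The filled points are 1 antioxidant enzyme in aged against young cells and 9 genes in aged+Ri against young cells, none of them among the 10 genes described here.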

How the data were processed

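RNA was reverse transcribed and amplified with a SMART-Seq v4 kit and made into libraries with a Nextera XT kit, per the labels' protocols. The deposited values are estimated counts per gene symbol made by the authors, partly fractional (71.6 to 80.9% of values per library were whole within 0.005). The submitters' processing notes name cutadapt 1.18, STAR 2.7.0, SAMtools 1.14, featureCounts, R 4.2.0 and GRCm38. Strand handling is not given in the sources used here.

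Counts were rounded to whole numbers and fitted in 1 edgeR 4.0.16 model of group means over 9 libraries (R 4.3.3, TMM scaling, filterByExpr, robust quasi-likelihood, 6 residual degrees of freedom). P-values are two-sided and adjusted over 15127 genes. They measure the spread between libraries, which may share mice. CPM are TMM-normalised. DESeq2 1.42.0, limma 3.58.1 (voom with quality weights), other scalings and filters, batch, the replicate block and left-out libraries were alternatives. The edgeR step was tested on simulated data. Counting intervals are exact and cover counting error only.

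The members and lists were chosen with earlier results of these data known. All 10 members are named, and of each related list up to 4 genes per comparison by smallest p. For each member, the nearest genes are among the 3 smallest distances. Gene positions and lengths are from GENCODE on GRCm38, and promoters from RefSeq on GRCm38.p6.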

Additional observations from a re-analysis of the deposited data

How the results depend on the processing

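The number of genes called depended strongly on the tool and on the libraries, and is given in the order aged against young, aged+Ri against aged, aged+Ri against young. It was 5, 0 and 219 by edgeR, 744, 320 and 1862 by DESeq2 (where 3 members, Foxo3, Foxo4 and Sod2, were called in the last comparison), and 18, 55 and 644 by limma-voom. With no filter on low counts it was 20, 11 and 291, with a stricter filter 6, 0 and 299, with DESeq2 size factors 5, 0 and 197, and with only the groups compared in the fit 1, 2 and 57. With batch as a covariate it was 5 in aged+Ri against aged cells, and with the young group reduced to young 1 it was 358, 40 and 735. Leaving out 1 library gave 2 (without aged 3) to 80 (without young 3) in aged against young, 0 to 6 (without aged 1) in aged+Ri against aged, and 18 (without aged+Ri 3) to 532 (without young 3) in aged+Ri against young cells. Members called stayed at 0 in all these settings but DESeq2. The replicate block gave 6, 2 and 226 genes and 0 members. Same-numbered libraries did not deviate together in every pair (correlations of deviations between -0.09 and 0.11), so the numbers do not show a pairing.

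Near-zero changes turned sign. Foxo1 in aged against young cells was -0.084 with DESeq2 size factors and by DESeq2, -0.022 with the stricter filter, and -0.17 to 0.63 without 1 library. Txnip in aged against young cells was -0.058 with DESeq2 size factors and by DESeq2, -0.0095 by limma-voom, -0.036 with the stricter filter, -0.023 with only the 2 groups, -0.00998 with the replicate block, -0.26 with batch as a covariate, and -0.36 to 0.49 without 1 library. Cat in aged+Ri against young cells was 0.038 with young 1 only and -0.44 to 0.19 without 1 library. Leaving out 1 library gave -0.45 to 0.44 for Sirt1 in aged+Ri against young and -0.29 to 0.10 for Sesn3 in aged against young cells. The cause of these turns was not tested. Of the 10 members Foxo4 had the fewest counts, 17 in its lowest library, and the widest intervals.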
